A study of Rattus norvegicus with 9 samples.

Results

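Toll-like receptors are pattern recognition receptors of innate immune cells, and this account follows 8 of them (Tlr1, Tlr2, Tlr3, Tlr4, Tlr5, Tlr6, Tlr7 and Tlr9) together with the lipopolysaccharide co-receptor Cd14 and the signalling adaptor Myd88. The genes were chosen by name, with earlier results of these data known. Of the 10 names, 9 were matched to rows of the gene count table, which holds 28343 genes, and Tlr1 is not analysed here. All 9 passed the filter on low counts, so the counts below cover every matched member.

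The cells came from Dark Agouti rats, an inbred strain. The diabetic group received streptozotocin, which destroys pancreatic beta cells, at 55 mg/kg and 8 to 10 weeks of age, and the control group received citrate buffer; the dose or the buffer was given after 12 hours of fasting. Rats of the diabetic group whose glucose exceeded 30 mmol/l had 2 units of insulin, and the tissue was collected 4 weeks after the injection. Cells of papain-digested whole retinas were sorted for CD11b, and their RNA was preamplified before library preparation. This gave 5 control libraries, with the numbers 1, 3, 4, 5 and 6, and 4 diabetic ones, with the numbers 1, 2, 4 and 5. CD11b is carried by microglia, the resident macrophages of the retina, and by blood-derived and border myeloid cells. The labels do not say that each library came from a separate rat, so p-values measure the spread between these libraries, which may in part be technical.

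Total counts ran from 6228756 to 11332823 per library. The 10 microglia markers, summed, stood at 23534 to 27359 normalised CPM (counts scaled to library size) in the control libraries and at 22078 to 23661 in the diabetic libraries, with Siglech at 0 in all 9. Controls 4 and 6 stood apart from the other libraries in cytokine genes: Il1b was at 2669 and 6384 CPM in them, at 56.5 to 288 in the other controls and at 132 to 460 in the diabetic libraries. Immediate-early genes were more graded. A list of genes known to respond to cell isolation summed to 21185 and 28100 CPM in controls 4 and 6. The sum was 3661 to 7372 CPM in the other controls and 10859 to 17085 CPM in the diabetic libraries. Without controls 4 and 6, every remaining control thus lay below every diabetic library in this sum. The main results are given with and without controls 4 and 6, a choice made after the data had been seen.

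In these cells a receptor at the plasma membrane (Tlr2, Tlr4, Tlr5, Tlr6) recognises lipids or proteins of microbes and some endogenous ligands, while a receptor in endosomes (Tlr3, Tlr7, Tlr9) recognises nucleic acids. Ligand binding brings together TIR domains and recruits Myd88 or, for Tlr3, the adaptor Ticam1, and kinases and ubiquitin ligases then activate NF-kappaB and interferon regulatory factors. Microglia express most of the family and are the main Toll-like receptor-bearing cells of the retina and brain.

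Promoter windows of 300 bases, from 250 before to 50 after the annotated start, were found in RefSeq (build GRCr8) for all 10 names. Those of Tlr2, Tlr7 and Cd14 are shown because these 3 members had the smallest p-values between the groups. The Tlr2 window lies at chr2:171504508-171504807 on the minus strand, the Tlr7 window at chrX:30644176-30644475 on the plus strand and the Cd14 window at chr18:28611109-28611408 on the minus strand, each printed 5′ to 3′ with motif matches in capitals.
Tlr2: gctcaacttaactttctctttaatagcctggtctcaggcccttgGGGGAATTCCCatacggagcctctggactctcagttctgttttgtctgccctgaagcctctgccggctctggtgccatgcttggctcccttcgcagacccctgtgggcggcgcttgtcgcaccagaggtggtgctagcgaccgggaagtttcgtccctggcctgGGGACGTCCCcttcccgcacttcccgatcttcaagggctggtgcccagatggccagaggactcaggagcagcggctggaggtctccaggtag
Tlr7: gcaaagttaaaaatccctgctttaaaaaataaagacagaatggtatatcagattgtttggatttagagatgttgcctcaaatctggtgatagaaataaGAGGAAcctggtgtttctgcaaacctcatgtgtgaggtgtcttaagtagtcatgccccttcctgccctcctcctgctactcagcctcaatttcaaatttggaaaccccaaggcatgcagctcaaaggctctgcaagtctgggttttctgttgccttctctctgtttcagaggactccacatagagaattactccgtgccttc
Cd14: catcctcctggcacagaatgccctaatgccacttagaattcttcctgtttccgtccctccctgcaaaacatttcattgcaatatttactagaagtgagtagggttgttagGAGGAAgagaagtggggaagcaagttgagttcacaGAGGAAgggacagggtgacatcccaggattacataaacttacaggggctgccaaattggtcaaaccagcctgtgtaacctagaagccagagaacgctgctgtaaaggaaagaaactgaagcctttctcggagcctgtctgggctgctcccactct

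Each window was searched on both strands for 3 motifs: the consensus of NF-kappaB, AP-1 (TGANTCA) and the core of the myeloid factor PU.1 (GAGGAA). NF-kappaB matches stood in 1 of the 10 windows, that of Tlr2, where a pair of overlapping matches began 206 and 205 bases before the start and another began 42 bases before it; 7.51% of 33469 RefSeq windows of the same length held the motif. The PU.1 core stood in 6 of the 10 windows, among them Tlr7 with 1 match and Cd14 with 2, and 27.6% of all windows held it. AP-1 matches stood in the Tlr9 and Myd88 windows, and in 7.33% of all windows. A match is a description of the letters and not a binding site.

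None of the 9 members passed an adjusted p of 0.05 between diabetic and control libraries in edgeR's quasi-likelihood test over 11748 genes, in which 0.0681% of all genes passed. An unadjusted p below 0.05 was reached by 3 of the 9, with Cd14 higher and Tlr2 and Tlr7 lower in the diabetic libraries, against 18.9% of all tested genes (8.94% higher and 10.0% lower). The groups did not overlap for 2 of the 9, Tlr2 and Tlr7, both lower in every diabetic library, against 8.44% of all genes (4.17% lower and 4.27% higher). The median log2 fold change of the members was -0.05, beside 0.00 over all tested genes. Without diabetic 1, 1 of the 9 members, Tlr7, kept an unadjusted p below 0.05.

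**Figure D1:**
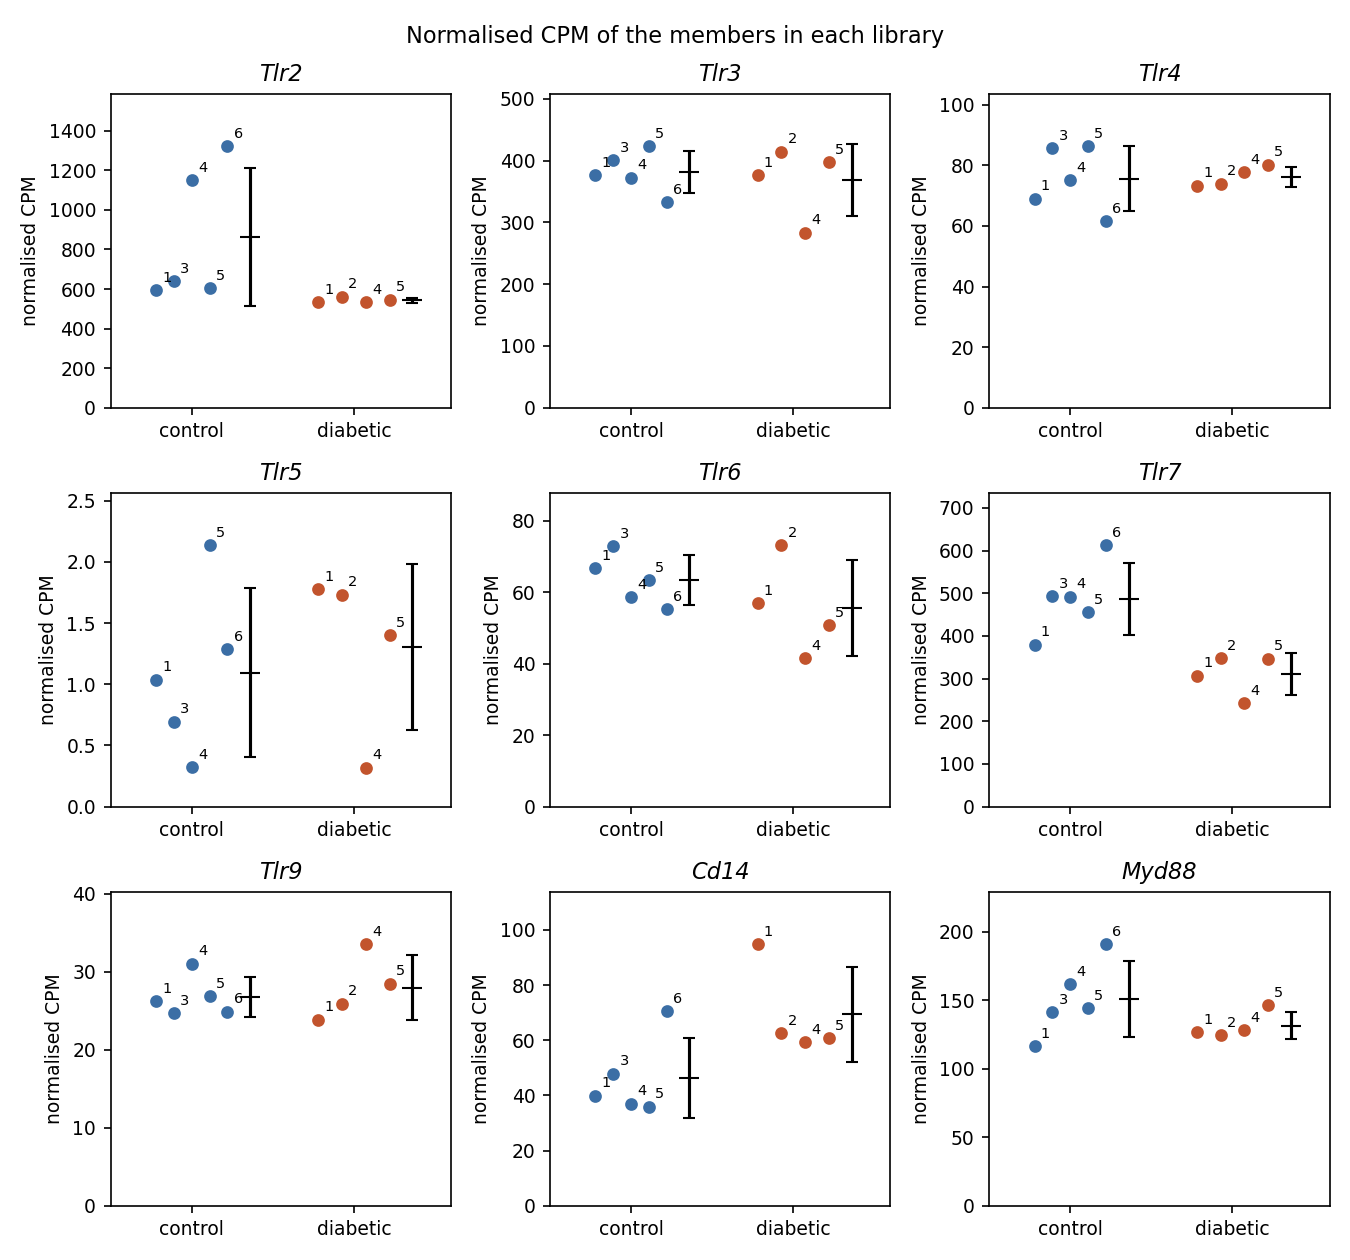
Normalised CPM of each member in every library, with control libraries in blue, diabetic libraries in orange, library numbers beside the points, and the group mean with its SD as a bar. Tlr2 and Tlr7 lie lower in all 4 diabetic libraries than in all 5 control libraries, and the other 7 members overlap.

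Tlr2, the surface receptor for lipoproteins, which pairs with Tlr1 or Tlr6, stood at 596, 641, 1152, 605 and 1324 CPM in controls 1, 3, 4, 5 and 6 and at 533, 561, 533 and 546 CPM in diabetic libraries 1, 2, 4 and 5. Controls 4 and 6 were far above every other library, and the other 3 controls, at 596 to 641 CPM, lay just above the diabetic libraries. Group means were 864 ± 348 CPM (SD, n = 5) and 543 ± 13.5 CPM (SD, n = 4). The log2 fold change was -0.67 (SE 0.31), with an adjusted p of 0.217 in edgeR's quasi-likelihood test. Without controls 4 and 6 it was -0.18, with an adjusted p of 0.323. With the mean level of a list of genes known to respond to cell isolation as a covariate the log2 fold change was -0.66, with an adjusted p of 0.00902 in the same test, in a fit that called 11.7% of all genes. Over all alternatives the adjusted p of Tlr2 ran from 0.00902 to 0.61. The gene lies on chromosome 2 at 182840727 to 182846061 of Rnor6, minus strand, in 2 exons of the reference transcript.

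Tlr6, the partner of Tlr2 for diacylated lipopeptides, stood at 66.7, 72.9, 58.7, 63.3 and 55.3 CPM in controls 1, 3, 4, 5 and 6 and at 56.9, 73.2, 41.6 and 50.7 CPM in diabetic libraries 1, 2, 4 and 5. Diabetic 2 was the highest of all 9 libraries and diabetic 4 the lowest, so the groups overlapped. Its log2 fold change was -0.19 (SE 0.16), with an adjusted p of 0.502 in edgeR's quasi-likelihood test, and -0.29 without controls 4 and 6 (adjusted p 0.441). Unlike Tlr2, it was not higher in controls 4 and 6, which stood at 0.842 times the mean of the other controls, where Tlr2 stood at 2.02 times.

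Tlr4, the receptor for lipopolysaccharide, had a narrow spread. It stood at 69.1, 85.6, 75.1, 86.5 and 61.6 CPM in controls 1, 3, 4, 5 and 6 and at 73.3, 74.0, 77.7 and 80.3 CPM in diabetic libraries 1, 2, 4 and 5, with every diabetic library inside the control range. The log2 fold change was 0.01, with a 95% interval from -0.21 to 0.24 and an adjusted p of 0.958 in edgeR's quasi-likelihood test; it was -0.08 without controls 4 and 6. Its reference transcript spans 82587420 to 82601052 on the plus strand of chromosome 5 in 3 exons.

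Cd14, which hands lipopolysaccharide to Tlr4 and also serves Tlr2, stood at 39.9, 47.9, 37.0, 36 and 70.6 CPM in controls 1, 3, 4, 5 and 6 and at 94.9, 62.4, 59.4 and 60.7 CPM in diabetic libraries 1, 2, 4 and 5. Every diabetic library was above controls 1, 3, 4 and 5, but control 6 lay above all diabetic libraries except diabetic 1. Means were 46.3 ± 14.4 CPM (SD, n = 5) and 69.4 ± 17.1 CPM (SD, n = 4), and the log2 fold change was 0.59 (SE 0.25), with an adjusted p of 0.192 in edgeR's quasi-likelihood test. Without controls 4 and 6 the log2 fold change of Cd14 was 0.74, with an adjusted p of 0.14 in the same test, in a fit where 14.9% of all genes had an unadjusted p below 0.05. Without diabetic 1 it was 0.40 (adjusted p 0.378). Cd14 was the 1 member called in the authors' deposited table, which listed it at a log2 value of 0.73 with an adjusted p of 0.0326 and in which 2.1% of 12069 genes were called. The deposited log2 values of the members lay close to those of the fit without scaling factors, and not to the TMM-scaled ones. In that fit Cd14 was at 0.73 (adjusted p 0.0973 in edgeR's quasi-likelihood test) and the median of all genes was 0.12. Over all alternatives the adjusted p of Cd14 ran from 0.0973 to 0.709. The gene lies on the minus strand of chromosome 18 at 29560365 to 29562153 in 2 exons.

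Diabetic 1, the library with the highest Cd14, was also the highest for 3 of the 8 marker lists of other cells. The border macrophage list, of which 7 of 8 genes were matched and none was at 0 in all libraries, had diabetic 1 as its highest library. It summed to 387, 776, 360, 528 and 431 CPM in controls 1, 3, 4, 5 and 6. The sums were 1420, 640, 1019 and 791 CPM in diabetic libraries 1, 2, 4 and 5. Control 3 was the highest control in this sum, and control 6 the highest control in Cd14. The inner retinal neuron list (12 of 12 genes matched) summed to 65.9 to 147 CPM in the control and 94.7 to 283 CPM in the diabetic libraries, again with diabetic 1 the highest. The monocyte list (7 of 9 genes matched) summed to 1722 to 2372 CPM and 1619 to 2478 CPM, with its defining gene Ccr2 at 0 in all libraries. Its most abundant gene was Lyz2, and that of the Muller glia list was Apoe. Which cells the RNA of these genes came from was not tested. The other 5 lists peaked elsewhere: photoreceptor markers in diabetic 2 (1701 CPM, against 613 in diabetic 1), Muller glia markers in control 3, vascular and neutrophil markers in control 1 and lymphocyte markers in control 5. The neutrophil sum came mostly from Csf3r, a gene that microglia also express. Its markers S100a8 and S100a9 stood at 6.22 and 37.0 CPM in diabetic 1, at 0.849 and 5.57 CPM in control 1, and were highest in diabetic 4. The part of these cells in the Cd14 difference was not tested, and in sorted bulk samples the number of cells of a type and the RNA per cell cannot be told apart.

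Tlr5, the receptor for flagellin, was barely detected, with 11, 8, 3, 20 and 10 counts in controls 1, 3, 4, 5 and 6 and 18, 17, 2 and 14 counts in diabetic libraries 1, 2, 4 and 5. Control 4 and diabetic 4 were the lowest, and the groups overlapped. Its log2 fold change of 0.30 had a 95% interval from -0.82 to 1.42, so differences within that interval were not excluded at this depth. The adjusted p was 0.788 in edgeR's quasi-likelihood test, and without controls 4 and 6 the log2 fold change was 0.07. Its reference transcript is a single exon at 101381510 to 101385764 on the plus strand of chromosome 13.

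Tlr7, the endosomal receptor for single-stranded RNA, had the smallest p of the members and ranked 88 of 11748 genes by p. It stood at 380, 493, 492, 456 and 614 CPM in controls 1, 3, 4, 5 and 6 and at 307, 348, 243 and 347 CPM in diabetic libraries 1, 2, 4 and 5. All diabetic libraries were below the lowest control, control 1, and diabetic 4 was the lowest of all. Means were 487 ± 84.4 CPM (SD, n = 5) and 311 ± 49.2 CPM (SD, n = 4). The log2 fold change was -0.65 (SE 0.19), with an adjusted p of 0.0895 in edgeR's quasi-likelihood test.

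The Tlr7 value passed the adjusted threshold in 3 alternatives and not in the others. The adjusted p was 0.00541 in the DESeq2 Wald test, which called 3.27% of all genes, and 0.00769 with the cell isolation covariate in edgeR, which called 11.7%. Without control 1 the adjusted p in edgeR was 0.046, in a fit that called 0.646% of all genes. Over all alternatives the log2 fold change ran from -0.72 to -0.51 and the adjusted p from 0.00541 to 0.499. Without controls 4 and 6 the log2 fold change was -0.52, with an adjusted p of 0.147. Tlr7 was listed in the authors' deposited table at a log2 value of -0.51 (adjusted p 0.176). The gene lies on the plus strand of chromosome X at 28486869 to 28512957 in 3 exons.

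Tlr3, the endosomal receptor for double-stranded RNA, stood at 376, 401, 372, 424 and 332 CPM in controls 1, 3, 4, 5 and 6 and at 377, 414, 283 and 398 CPM in diabetic libraries 1, 2, 4 and 5. Diabetic 4 was the lowest library and the other 3 diabetic libraries lay within the control range. The log2 fold change was -0.05, with a 95% interval from -0.29 to 0.19 and an adjusted p of 0.841 in edgeR's quasi-likelihood test; it was -0.13 without controls 4 and 6. Its 2 reference transcripts span 50016857 to 50031214 on the plus strand of chromosome 16.

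Tlr9, the endosomal receptor for unmethylated CpG DNA, stood at 26.2, 24.7, 31.1, 26.9 and 24.9 CPM in controls 1, 3, 4, 5 and 6 and at 23.9, 25.9, 33.6 and 28.5 CPM in diabetic libraries 1, 2, 4 and 5. The lowest and the highest library were both diabetic, so the groups overlapped on both sides. The log2 fold change was 0.06, with a 95% interval from -0.20 to 0.33 and an adjusted p of 0.819 in edgeR's quasi-likelihood test; it was 0.10 without controls 4 and 6. The gene lies on the plus strand of chromosome 8 at 114916122 to 114920171 in 2 exons.

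Myd88, the adaptor that links every member of the receptor group except Tlr3 to the kinase Irak4, stood at 117, 141, 162, 144 and 191 CPM in controls 1, 3, 4, 5 and 6 and at 127, 125, 128 and 146 CPM in diabetic libraries 1, 2, 4 and 5. Controls 4 and 6 were the highest of all 9 libraries, and every diabetic library lay between the lowest and the highest control. The log2 fold change was -0.20 (SE 0.14), with an adjusted p of 0.405 in edgeR's quasi-likelihood test. Without controls 4 and 6 it was -0.04. Tlr2 and Myd88 were the 2 of 9 members with both of these controls above all other libraries, a pattern held by 14.3% of all tested genes. The gene lies on the minus strand of chromosome 8 at 128022473 to 128026841 in 6 exons.

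**Figure D2:**
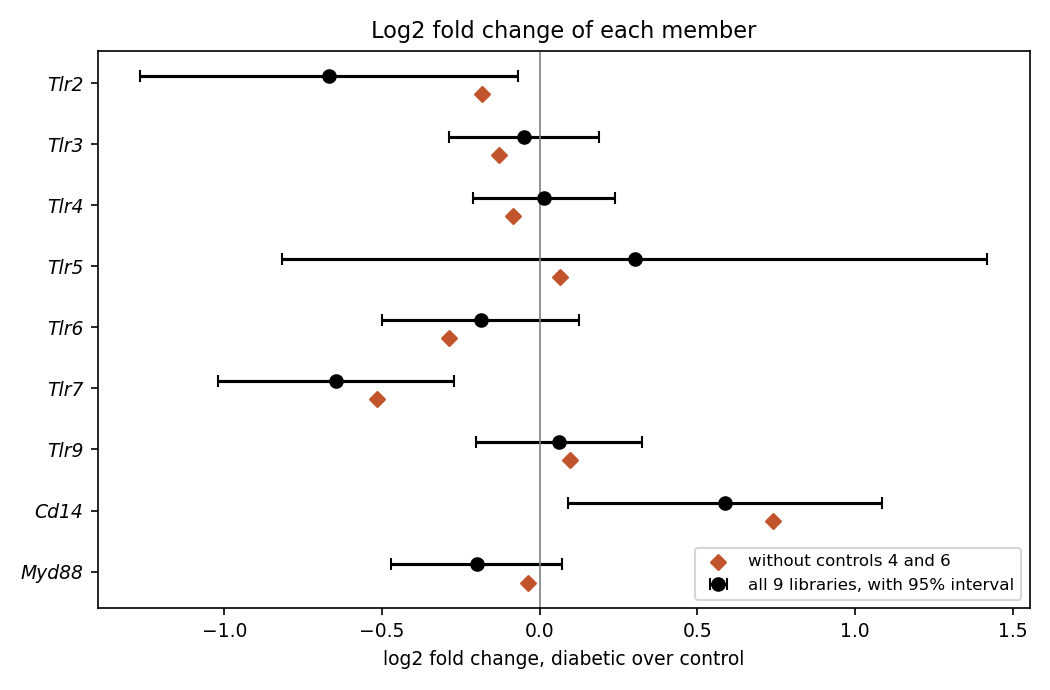
Log2 fold change of each member, diabetic over control, with its 95% interval from all 9 libraries (black) and the estimate without controls 4 and 6 (orange diamonds). The estimate for Tlr2 moved from -0.67 to -0.18 without these controls, while those for Tlr7 and Cd14 moved from -0.65 to -0.52 and from 0.59 to 0.74.

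Levels were compared between genes only per length, as CPM per kilobase of reference exons, which Tlr6 had no length for. The medians over 9 libraries ran Tlr2 (230 CPM per kb), Tlr7 (88.7), Tlr3 (84.2), Myd88 (57.5), Cd14 (35), Tlr4 (22.5), Tlr9 (8.07) and Tlr5 (0.303). Tlr2 was above every other member with a length in all libraries: its lowest library, at 205 CPM per kb, lay above the highest of Tlr7, at 143. The neighbours Tlr7 and Tlr3, Tlr3 and Myd88, Myd88 and Cd14, and Cd14 and Tlr4 overlapped over the 9 libraries, while Tlr4 and Tlr9, and Tlr9 and Tlr5, did not. The authors' transcript assemblies, summed over transcripts that overlap the reference exons, gave medians in TPM of 203 for Tlr3, 166 for Tlr2, 105 for Myd88, 88.8 for Tlr7, 22 for Cd14, 18.9 for Tlr4, 9.32 for Tlr9 and 0.12 for Tlr5, so that scale put Tlr3 first. Assembled loci that contain a reference transcript of the gene, the stricter measure, had a value in all 9 libraries for Tlr5, in 8 for Tlr3 and Cd14, in 7 for Tlr4, in 3 for Tlr7 and Myd88 and in 1 for Tlr2 and Tlr9, so no order was read from it.

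**Figure D3:**
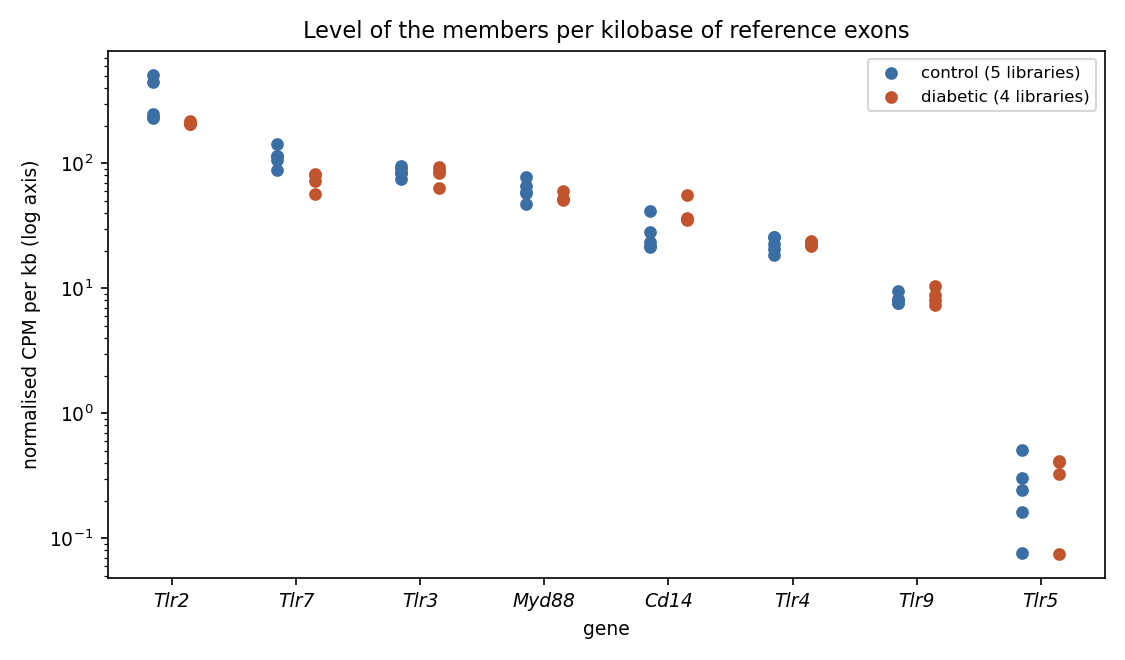
Level of each member in every library as normalised CPM per kilobase of reference exons, on a log axis, with 5 control libraries in blue and 4 diabetic libraries in orange. Tlr2 is the highest in every library, and Tlr5 lies at or below 0.503 CPM per kb in all of them.

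In CPM per kilobase Tlr7 was above Tlr3 in 5 of 5 control libraries and in 0 of 4 diabetic libraries. On TPM overlapping the reference exons this difference in order was not seen: Tlr3 was above Tlr7 in 4 of 5 control and 4 of 4 diabetic libraries, with control 6 (135 and 139.8 TPM) the exception. Within a library, where scaling cancels, the log2 ratio of Tlr3 to Tlr7 counts ran from -0.88 to -0.01 in the controls and from 0.20 to 0.29 in the diabetic libraries, a difference of 0.58 between the means. Of the 36 pairs of members, 8 (22.2%) had ratios that did not overlap between the groups, and each of the 8 held Tlr7, Cd14 or Tlr2. These 3 are the members with an unadjusted p below 0.05 on the same counts, so the pairs are not separate evidence. The share over pairs of all tested genes was not computed. The log2 ratio of Tlr7 to Cd14 was lower by 1.25 in the diabetic libraries, that of Tlr2 to Cd14 by 1.18, that of Tlr7 to Tlr9 by 0.70 and that of Tlr2 to Tlr9 by 0.64. The log2 ratio of Tlr7 to Myd88 was 1.6 to 1.8 in the control libraries and 0.92 to 1.48 in the diabetic libraries. In a two-sided exact permutation test 10 of the 36 differences had p below 0.05. None passed after Benjamini-Hochberg adjustment over the 36 pairs, where the lowest adjusted p was 0.0714. With 5 libraries against 4 the two-sided p of this test cannot fall below 0.0159. The 8 pairs without overlap were at that floor and had the adjusted p of 0.0714. Complete separation of a pair thus did not suffice to pass, and no conclusion is drawn from none passing. Pairs share members and are not independent.

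By Pearson r of log2 CPM over the 9 libraries, the genes most like 8 of the members were as follows, as descriptions that rest on the same 9 libraries. Those most like Tlr2 were Gbp2 (r = 0.991), Slc15a3 (0.99) and Rbbp8 (0.988), and Gbp2, an interferon-inducible GTPase, was at 579 and 1036 CPM in controls 4 and 6 and at 74.8 to 105 CPM in the other libraries. Those most like Tlr7 were Rbm18 (r = 0.984), Calu (0.972) and Rock2 (0.97). Those most like Cd14 were Uchl1 (r = 0.938), a ubiquitin hydrolase abundant in neurons, Ccdc136 (0.928) and Hopx (0.925). Myd88 was most like RGD1566189 (r = 0.975), Suco and Elf1, and Tlr3 most like Dnmt3b (0.987), Ube3b and Lpar4. Tlr5 was most like Lcmt2 (0.928), Tmem67 and Sdsl, Tlr6 most like Eif2a (0.947), Podxl and Egflam, and Tlr9 most like Zfp229 (0.937), Med19 and Eed. No member was among the genes most like another member.

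The other genes of the pathway were taken from 9 lists with 108 names. Of the 90 genes tested, none passed the adjusted threshold in edgeR's quasi-likelihood test, and 17 had an unadjusted p below 0.05, 6 higher and 11 lower in the diabetic libraries, against 18.9% of all tested genes. In alternatives the adjusted threshold was passed by 23 of them with the cell isolation covariate (11.7% of all genes), 8 with DESeq2 (3.27%), 4 with edgeR's likelihood-ratio test (1.46%), 2 without control 1 (0.646%) and 1 without the filter (0.236%). The median log2 fold change was -0.20, and 0.01 without controls 4 and 6. Both of these controls were above all other libraries for 36 of the 90 genes (40%), against 14.3% of all genes tested.

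Chaperones and transporters of Toll-like receptors, with 10 tested genes, held 5 of the 17, all lower, where 10.0% of all genes were lower at that p. Of these 10 genes 4 did not overlap between the groups on the lower side (4.17% of all genes) and 1 on the higher side (4.27%). Without controls 4 and 6, Slc15a3 and Rab7b no longer had an unadjusted p below 0.05. Hsp90b1, the endoplasmic reticulum chaperone that folds most of the receptors, stood at 1303 to 1756 CPM in the controls and 1130 to 1237 CPM in the diabetic libraries (log2 fold change -0.37, adjusted p 0.112 in edgeR's quasi-likelihood test). Slc15a4, an endolysosomal transporter needed for Tlr7 and Tlr9 signalling, stood at 169 to 265 CPM and 141 to 150 CPM (log2 fold change -0.47, adjusted p 0.107; -0.30 without controls 4 and 6). Tmed7, which moves Tlr4 through the secretory pathway, stood at 347 to 435 CPM and 290 to 331 CPM (log2 fold change -0.30, adjusted p 0.124). Unc93b1, which carries the nucleic acid receptors to endosomes, lay on the other side, at 777 to 993 CPM in the controls and 999 to 1056 CPM in the diabetic libraries (log2 fold change 0.19, adjusted p 0.265; 0.09 without controls 4 and 6). The median of the list was -0.34 and, without controls 4 and 6, -0.24.

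**Figure D4:**
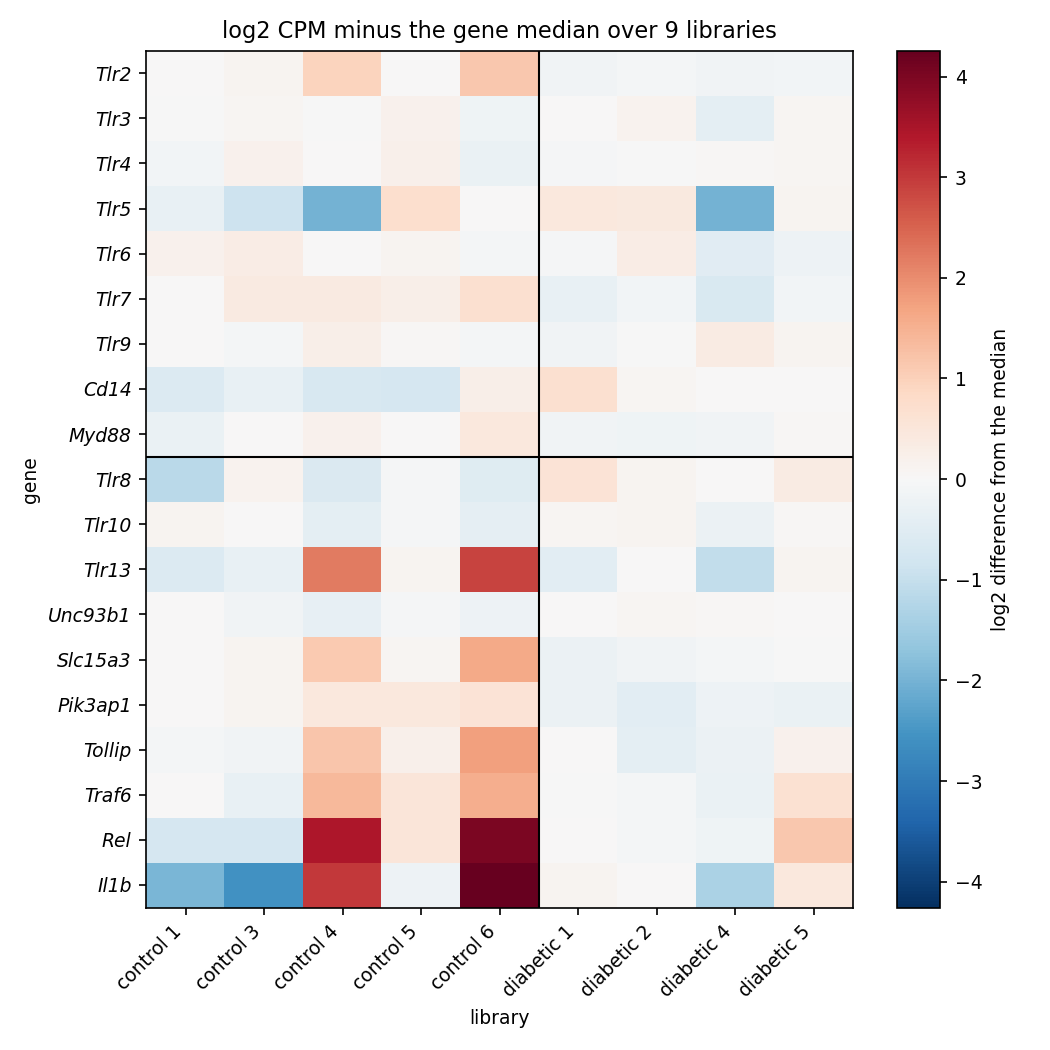
Log2 CPM of the 9 members (above the horizontal line) and of 10 other pathway genes in each library, minus the median of the gene over the 9 libraries; red is above the median and blue below, and the vertical line divides control from diabetic libraries. Controls 4 and 6 are red for Tlr2, Tlr13, Slc15a3, Tollip, Traf6, Rel and Il1b, and the diabetic libraries are blue for Tlr7 and Pik3ap1.

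Of the other Toll-like receptors, Tlr8, an endosomal receptor for single-stranded RNA beside Tlr7 on the X chromosome, stood at 9.62 to 23.6 CPM in the controls and at 21.3 to 31.9 CPM in the diabetic libraries (log2 fold change 0.65, adjusted p 0.175 in edgeR's quasi-likelihood test). Without controls 4 and 6 its adjusted p was 0.398. Its estimate had the opposite sign to that of Tlr7. Tlr13, a receptor for bacterial ribosomal RNA, stood at 2124 and 3354 CPM in controls 4 and 6, at 310 to 501 CPM in the other controls and at 225 to 498 CPM in the diabetic libraries (adjusted p 0.294; log2 fold change -1.80, and -0.05 without these controls). Tlr10 stood at 50.3 to 71.1 CPM and 55.7 to 72.7 CPM (log2 fold change 0.15, adjusted p 0.549, and -0.013 without these controls). Tlr11 and Tlr12 had too few counts to be tested, with at most 14 and 9 counts in a library.

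Among co-receptors and adaptors, Ly96 and Ticam1 are not analysed here and 4 genes were tested. Pik3ap1, an adaptor between Toll-like receptors and phosphoinositide kinase, stood at 463 to 687 CPM in the controls and at 338 to 399 CPM in the diabetic libraries with no overlap, and at an adjusted p of 0.0711 (log2 fold change -0.63) it was the lowest p of the pathway genes in edgeR's quasi-likelihood test. Tirap, the bridging adaptor for Tlr2 and Tlr4, had a log2 fold change of 0.22 (adjusted p 0.7), and of -0.02 without controls 4 and 6. Ticam2, the bridging adaptor for Ticam1 at Tlr4, had one of -0.07 (adjusted p 0.76), and of -0.19 without them.

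Of the 18 signalling kinases and ubiquitin ligases tested, 2 (11.1%) had an unadjusted p below 0.05, both lower, where 10.0% of all genes were lower at that p. They were Chuk, a catalytic subunit of the IkappaB kinase complex (63.0 to 116 CPM in the controls and 59.8 to 64.8 CPM in the diabetic libraries), and Map3k7, the kinase that activates that complex (4.77 to 7.22 and 2.55 to 5.23 CPM). Neither had an unadjusted p below 0.05 without controls 4 and 6. Irak4, the first kinase recruited by Myd88, had a log2 fold change of -0.11 (adjusted p 0.528 in edgeR's quasi-likelihood test). Traf6, the ubiquitin ligase downstream of it, stood at 61.4 and 68.8 CPM in controls 4 and 6 and at 19.3 to 37.0 CPM in the other libraries, and Peli1, another ligase, at 91.3 and 140 CPM and at 39.2 to 48.1 CPM. The median of the list was -0.14.

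Among the 13 inhibitors tested none had an unadjusted p below 0.05, against 18.9% of all tested genes. Tollip, which binds and restrains the receptor kinases, stood at 421 and 618 CPM in controls 4 and 6 and at 138 to 215 CPM in the other libraries. Irak3, an inactive kinase that blocks signalling below Myd88, had a log2 fold change of 0.14 (adjusted p 0.773 in edgeR's quasi-likelihood test), and of 0.24 without controls 4 and 6. The paired surface regulators Cd180 and Ly86 had log2 fold changes of -0.19 (adjusted p 0.337) and 0.20 (adjusted p 0.281).

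Of the 8 transcription factors, Irf3, which acts below Ticam1, was the 1 gene with an unadjusted p below 0.05, where 8.94% of all genes were higher at that p. It stood at 76.8 to 115 CPM in the controls and 107 to 152 CPM in the diabetic libraries (log2 fold change 0.47, adjusted p 0.126 in edgeR's quasi-likelihood test). The NF-kappaB subunit Nfkb1 stood at 542 and 571 CPM in controls 4 and 6 and at 261 to 358 CPM in the other libraries. The median of the list was -0.42, and 0.22 without these controls.

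The list of 14 tested target genes, cytokines, chemokines and feedback inhibitors, depended most on controls 4 and 6, which were both above all other libraries for 11 of the 14. Its median log2 fold change was -0.88 with all libraries and 0.89 without these controls. With all libraries 1 gene had an unadjusted p below 0.05, Il12a, a subunit of interleukin-12, where 8.94% of all genes were higher at that p. It stood at 5.28 to 8.21 CPM in the controls and 8.90 to 10.4 CPM in the diabetic libraries. Without controls 4 and 6, 6 genes did, all higher, where 7.2% of all genes were higher at that p, and none passed the adjusted threshold in edgeR's quasi-likelihood test. The 16 tested genes of the cell isolation list had a median of 0.03, and 1.25 without these controls, where 10 had an unadjusted p below 0.05, all higher. Controls 4 and 6 were singled out because cytokine and immediate-early genes were high in them, and Il1b is itself a target gene. The rise of both medians without them, and the genes higher there, follow from that choice and are not a separate result. What sets controls 4 and 6 apart was not tested.

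**Figure D5:**
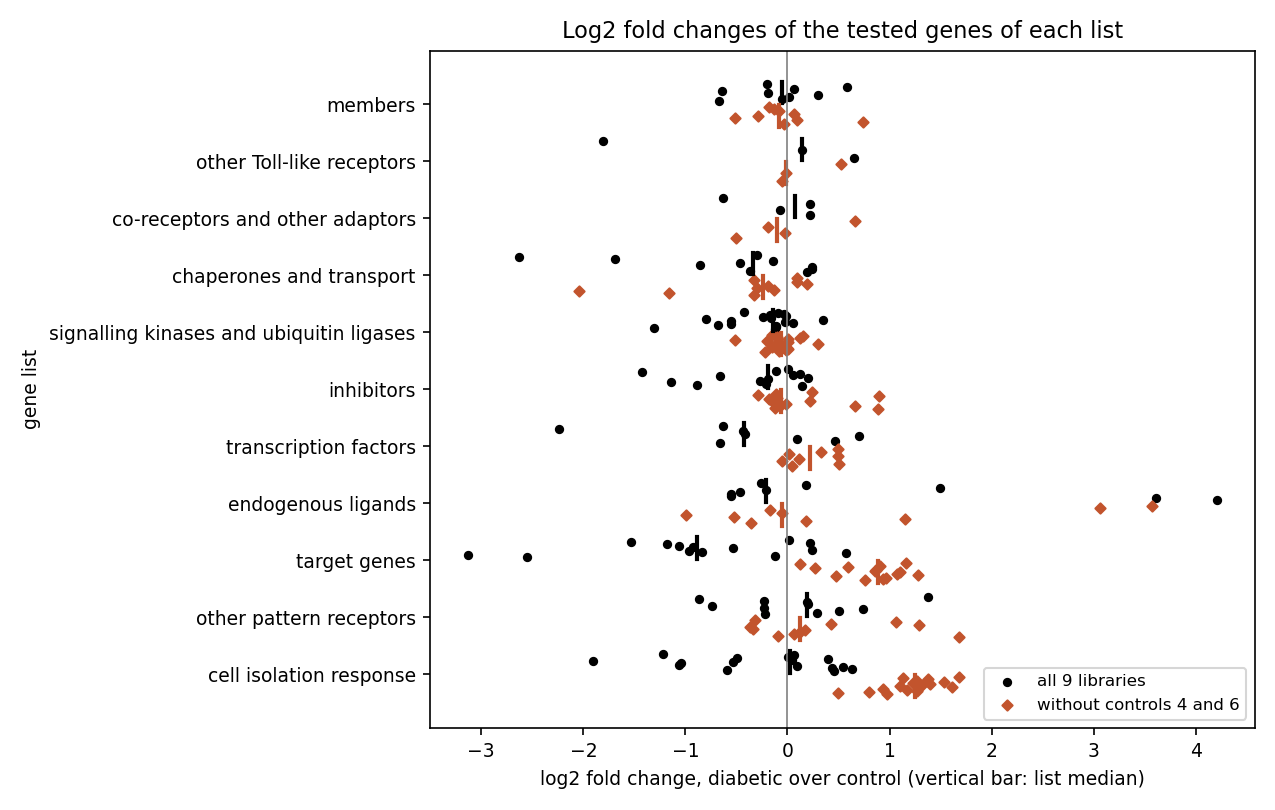
Log2 fold change, diabetic over control, of every tested gene of the members and of each list, with all 9 libraries (black) and without controls 4 and 6 (orange); a vertical bar marks the median of a list. The median of the target genes moved from -0.88 to 0.89, and that of the members from -0.05 to -0.08. Controls 4 and 6 were singled out for high cytokine genes, so the move of the target genes follows from that choice.

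Among endogenous ligands, S100a8 and S100a9, calcium-binding proteins that bind Tlr4 and are abundant in neutrophils, were higher in all 4 diabetic libraries. S100a8 stood at 0.849 and 0.347 CPM in controls 1 and 3, at 0 in controls 4, 5 and 6, and at 6.22, 1.43, 10.2 and 2.60 CPM in diabetic libraries 1, 2, 4 and 5 (adjusted p 0.0895 in edgeR's quasi-likelihood test). S100a9 stood at 0.214 to 5.57 CPM in the controls and at 14.8 to 52.9 CPM in the diabetic libraries (adjusted p 0.105). In the authors' deposited table, which called 2.1% of genes, each had an adjusted p of 3.8e-05. With the cell isolation covariate in edgeR's quasi-likelihood test, which called 11.7% of genes, the adjusted p was 0.00508 for S100a8 and 0.00941 for S100a9. Both also belong to the neutrophil marker list (9 of 9 genes matched), which summed to 302 to 382 CPM in the controls and 307 to 373 CPM in the diabetic libraries, mostly from Csf3r, a gene that microglia also express. Without Csf3r the log2 ratio of the summed list, diabetic over control, was 3.22, against -0.0019 with it. The list without Csf3r still holds S100a8 and S100a9, so this ratio is not separate from their values. Of the 9 markers, 2 did not overlap between the groups on the higher side, S100a8 and S100a9 (4.27% of all genes). On the lower side 1 marker did not overlap (4.17% of all genes). Ltf, a granule gene of neutrophils, was at 0 in all libraries. The part of neutrophils in these values was not tested. App, the amyloid precursor, was at 362 to 518 CPM and 353 to 389 CPM (log2 fold change -0.26, adjusted p 0.225).

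Of the 11 other pattern receptors tested, Trem1, which amplifies Toll-like receptor signals in myeloid cells, stood at 1.5 to 5.80 CPM in the controls and 4.5 to 8.58 CPM in the diabetic libraries (log2 fold change 1.37, adjusted p 0.114 in edgeR's quasi-likelihood test). Its adjusted p was 0.0287 in that test with the cell isolation covariate, which called 11.7% of genes. It was 0.00895 in the authors' deposited table, which called 2.1%. Ifih1, a cytosolic sensor of double-stranded RNA, stood at 17.8 to 51.2 CPM and 11.5 to 23.4 CPM (log2 fold change -0.74, adjusted p 0.25; -0.33 without controls 4 and 6). Clec7a, the beta-glucan receptor, stood at 51.2 to 91.7 CPM and 68.3 to 139 CPM (log2 fold change 0.51, adjusted p 0.282).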

How the data were processed

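RNA of sorted retinal cells was sequenced in 5 control and 4 diabetic libraries. Raw counts per gene symbol were deposited by the authors, with 28343 rows and 1 column per library; the sources used here name neither the counting program nor its strand setting, so overlapping genes cannot be told apart. The submitters' processing notes name bcl2fastq 2.18.0.12, TopHat2 2.0.14, StringTie 1.2.4 and edgeR on the build Rnor_6.0. The authors also deposited a comparison table with log2 fold changes and p-values for 12069 genes and transcript assemblies with TPM values normalised within each library; the assemblies place models of one gene on either strand.

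The filterByExpr function (minimum count 10, minimum total 15) kept 11748 of the 17822 genes that had any count. After TMM scaling these were tested by the quasi-likelihood F test of edgeR 4.0.16 (robust, no covariate) in R 4.3.3, with Benjamini-Hochberg adjustment and a threshold of 0.05. CPM values use library sizes multiplied by their TMM factors. Standard errors were derived from the fold change and the normal quantile of the p-value. The fit was tested on simulated data. Alternatives used DESeq2 1.42.0, limma 3.58.1, other factors, no filter, a covariate, log2(TPM + 0.5), and left-out libraries; ratios of counts had 0.5 added and were compared by exact permutation tests (scipy 1.17.1).

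All members are named, with up to 3 genes of each pathway list by smallest p, Ly96, Ticam1, Tirap, Unc93b1, Irak4, Traf6, Irak3, Tollip, Il1b, S100a8 and S100a9, and the 3 genes most correlated with each member (those of Tlr4 are not reported here); Gbp2 levels were added after they were seen. The members and lists were chosen with earlier results of these data known. The ratios, the fit without controls 4 and 6 and the overlap TPM were chosen after seeing the data. Intervals cover the spread between libraries, and the counts carry no molecular identifiers that the labels name.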

Additional observations from a re-analysis of the deposited data

Results flagged for a closer look

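Among 84 groups of values examined, 6 held a library far from the others of its group by Dixon's test, where chance gives about 1 in 20. Cd14 was at 94.9 CPM in diabetic 1, with the other 3 diabetic libraries at 59.4 to 62.4 CPM. Myd88 was at 146 CPM in diabetic 5, against 125 to 128 CPM in the others. Cd180, a surface regulator related to the Toll-like receptors, was at 336 CPM in control 1, against 388 to 403 CPM in the other controls. The NF-kappaB subunit gene Rel was at 72.2 CPM in diabetic 5, against 29.1 to 32.9 CPM. App was at 353 CPM in diabetic 4, against 384 to 389 CPM. Trem1 was at 5.80 CPM in control 6, against 1.5 to 2.64 CPM in the other controls. No cause was tested for these 6 values.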

How the results depend on the processing

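Of 181 values of the members under alternatives, 165 kept their direction and side of the adjusted threshold, 4 passed it (Tlr7 in 3, Tlr2 in 1) and 12 changed sign; the cause was not tested. Tlr3, at -0.050 with all libraries, was at 0.024 with upper-quartile factors, 0.062 without factors and 0.015 on TPM overlapping the reference exons, and ran from -0.11 to 0.055 with a library left out (positive without diabetic 4). Tlr4, at 0.014, was at -0.60 on TPM of assembled loci and -0.083 without controls 4 and 6, and ran from -0.051 to 0.067 with a library left out (negative without control 1, control 6 or diabetic 5). Tlr9, at 0.062, was at -0.79 on overlapping TPM and ran from -0.036 (without diabetic 4) to 0.13. Cd14, at 0.59, was at -1.08 on TPM of assembled loci. The difference in the log2 ratio of Tlr3 to Tlr9 ran from -0.21 to 0.094 (positive without diabetic 4), and that of Tlr2 to Tlr6 was 0.14 without controls 4 and 6.

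The number of genes called by edgeR's quasi-likelihood test, 8 (5 higher), became 31 (27 higher) with upper-quartile factors, 29 (28 higher) without factors, which moved the median of all genes to 0.12, 42 without the filter, 171 with the likelihood-ratio test and 1376 with the covariate. It became 583 with DESeq2, 4 with limma-voom, 2 on overlapping TPM and 0 without controls 4 and 6 (1775 at an unadjusted p below 0.05). Leaving out each library in turn gave 0 to 75 genes: 75 without control 1, 1 without control 3 or 5, 2 without diabetic 2, and 0 in edgeR without control 4, diabetic 1 or diabetic 4 (1686, 1793 and 1528 at an unadjusted p below 0.05). The 3 members with an unadjusted p below 0.05 became 1 to 4 with a library left out. On TPM of assembled loci 0 of the 3 members tested (Tlr3, Tlr4 and Cd14) reached it, and Tlr2 and Tlr7 were not tested. On overlapping TPM 0 of the 7 members tested reached it. The 17 pathway genes became 31 with DESeq2, 43 with the covariate, 4 of 21 tested on TPM of assembled loci, 1 of 44 on overlapping TPM, and 12 to 26 (without control 1) with a library left out.

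With the shared numbers 1, 4 and 5 as a replicate block, edgeR called 0 genes (1150 at an unadjusted p below 0.05), with 3 members (Cd14, Tlr7 and Tlr6, at p 0.038, but not Tlr2, at 0.062,) and 10 pathway genes at an unadjusted p below 0.05. Deviations of same-numbered libraries correlated at 0.20, -0.11 and 0.016, and 2 of 6 libraries correlated best with their own number, so the numbers were not taken to pair the libraries. Depth limits Tlr5, with 2 to 20 counts per library.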
